A study of Mus musculus with 2 samples.

Results

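The histone genes of the embryonic mouse kidney are described here: the replication-dependent genes of the Hist1, Hist2, Hist3 and Hist4 clusters, and the replacement and linker variants named H2af, H3f3 and H1f. Members were the genes whose GENCODE M21 symbol starts with one of those stems, matched by Ensembl identifier to the deposited gene tables. Of 91 such genes, 88 were measured, among 43346 mouse genes in all. They comprised 64 protein-coding replication-dependent genes, 15 protein-coding replacement or linker genes, and 9 pseudogenes or antisense genes. The other 3, the H2B genes Hist1h2bh, Hist1h2bm and Hist2h2bb, were not matched and are not analysed here, so every H2B sum below lacks them.

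Total RNA was measured in kidneys of B6NCrl mouse embryos at embryonic day 15.5, male and female together. The only group held 2 libraries, replicate 1 from 78 pooled embryos and replicate 2 from 62, each made from 10 ng of RNA, and the labels name no treatment and no altered allele. Fragments longer than 200 nt were measured. The mouse genes received 35301018 expected counts in replicate 1 and 38104235 in replicate 2, of which the histone genes took 0.763% and 0.714%. A level is a TPM, a relative abundance adjusted for transcript length, given per library or as mean ± SD (n = 2), and there is no second group to compare with. A pool of whole kidneys does not tell a change in the number of cells of a type from a change in RNA per cell.

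Histones package DNA into nucleosomes, each built from H2A, H2B, H3 and H4, with H1 bound to the linker between them. Replication-dependent genes are transcribed in S phase, lack introns, and give the main mRNAs of animals that end in a conserved stem-loop instead of a poly(A) tail. The stem-loop binds SLBP, which guides 3′ end cleavage and translation. Replacement variants such as H3.3, H2A.Z and macroH2A are made throughout the cell cycle from ordinary polyadenylated mRNAs and are placed at promoters, damaged DNA or silent chromatin. The fetal kidney is a growing organ with many dividing cells.

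The 3′ stem-loops are shown because they define the replication-dependent family and divide it by class. Each sequence below is the 16-base element in capitals with the 12 bases before it, read 5′ to 3′ on the gene's strand from M21 transcripts, and the range is that of the element on mm10.
Hist1h2ap, chr13:21833029-21833044, minus strand: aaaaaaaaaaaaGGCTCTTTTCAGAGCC
Hist1h2ae, chr13:23570668-23570683, minus strand: aaaaaaaacaaaGGCTCTTTTCAGAGCC
Hist3h2ba, chr11:58949349-58949364, plus strand: ccccaacccaaaGGCTCTTTTCAGAGCC
Hist1h3a, chr13:23761890-23761905, minus strand: gaattaaccaaaGGCTCTTTTCAGAGCC
Hist1h1e, chr13:23621782-23621797, minus strand: caacaacccaaaGGCTCTTTTCAGAGCC
Hist1h4d, chr13:23581950-23581965, plus strand: ccaaaaaccaaaGGCCCTTTTCAGGGCC
Hist1h4b, chr13:23757366-23757381, plus strand: actgttacaaaaGGTCCTTTTCAGGACC
H2afx, chr9:44335240-44335255, plus strand: cacctccacaaaGGCCCTTTTAAGGGCC

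The search asked for a stem of 6 base pairs, G-T pairs allowed, that opens with GG and closes with CC around a loop of 4 bases that starts with T, has T or C next and does not end with G. Of 49 replication-dependent genes whose 3′ UTR model was at least 40 nt long, 44 held the element, 21 to 58 nt after the stop codon. In 20827 other protein-coding genes the element was found within the first 100 nt after the stop codon in 23 (0.110%). The letters of the stem followed the class. All 32 stem-loops of H1, H2A, H2B and H3 genes opened with GGCTC, whereas none of the 12 in H4 genes did. Of those 12, 10 opened with GGCCC and 2 with GGTCC. Among 12 replacement genes with such a 3′ UTR model, only H2afx, the variant phosphorylated at DNA breaks, carried the element, and its stem was of the GGCCC kind. Its M21 model ran on for 822 nt past the element. In 22 of the 44 replication-dependent genes the M21 model also continued for more than 100 nt past the stem-loop, although the transcript used for the deposited values had the same length as in M21 for only 63 of 88 members.

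Most histone genes were detected. At least 1 TPM was reached in both libraries by 66 of the 88 members (75.0%), beside 34.9% of all mouse genes, and by 63 of the 79 protein-coding members (79.7%), beside 62.3% of all protein-coding genes. Among protein-coding genes, detection reached 11 of 12 in H3, 16 of 18 in H2A, 13 of 15 in H2B, 5 of 6 in H1 and 8 of 13 in H4. The replacement and linker variants reached it in 10 of 15. Levels within the family spanned a wide range: the median over the replication-dependent genes was 6.54 TPM, and only 12 of the 64 had a mean of 30 TPM or more.

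**Figure D1:**
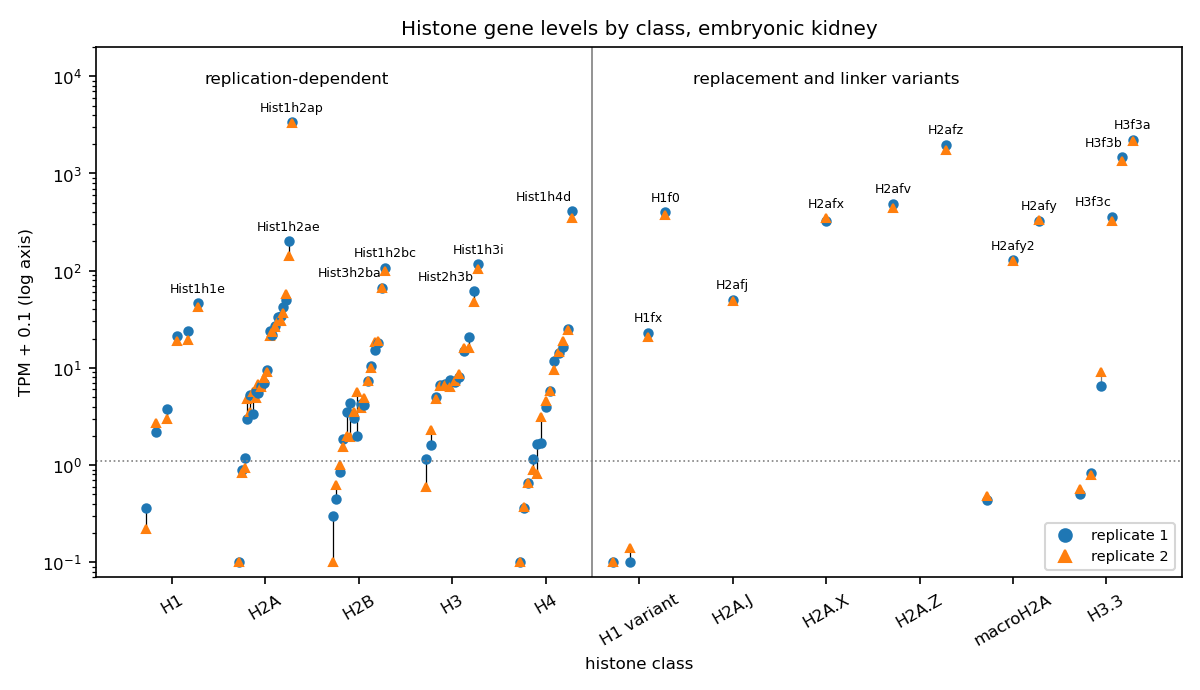
TPM of each member plus 0.1, on a log axis, by histone class. Circles are replicate 1 and triangles replicate 2, a line joins the 2 values of a gene, and the dotted line marks detection at 1 TPM. In H2A, H2B, H3 and H4 1 or 2 genes lie above the rest of their class, and Hist1h2ap stands above all other histone genes. H2A.B and H2af-ps, all listed at 0, are not drawn.

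H2A forms one partner of the H2A-H2B dimer on the nucleosome's outer faces, and a single H2A gene dominated the family. Hist1h2ap was at 3368 TPM in replicate 1 and 3313 TPM in replicate 2, or 3341 ± 38.5 TPM, and stood at rank 19 of all mouse genes. It made up 88.2% of the summed H2A level and 69.2% of the whole replication-dependent sum. The next H2A gene, Hist1h2ae, was at 200 TPM in replicate 1 and 141 TPM in replicate 2. The libraries were close for Hist1h2ap and well apart for Hist1h2ae.

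The remaining H2A genes at 30 TPM or more lay far below these. Hist1h2ag was at 49.7 TPM and 56.9 TPM in replicates 1 and 2. It had no unique coding window, so this level rests on how shared reads were divided. Hist2h2aa2 was at 41.7 TPM and 36.6 TPM. Its neighbour on chromosome 3, Hist2h2aa1, encodes the same protein from coding sequence that no 100-nt window tells apart from other genes, so the sum of the pair, 61.6 ± 2.75 TPM, is the safer value. Hist1h2ab was at 33.8 TPM and 30.2 TPM. Hist3h2a was at 33.6 TPM and 29.9 TPM, and its model lies within Trim17 on the same strand, a gene listed at 0.58 TPM and 0.48 TPM. None of these genes came within a factor of 10 of Hist1h2ap.

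Hist1h2ap could not be separated by its coding sequence from a second gene. Its 393 coding bases, stop codon included, differed from those of Hist1h2ao at 0 positions, and the first 57 nt of the 3′ UTR were also the same in both. The models differed only at their ends: Hist1h2ap had a 5′ UTR of 32 nt against 2 nt for Hist1h2ao, and Hist1h2ao ran on to 85 nt of 3′ UTR. The authors' quantifier gave nearly all of the shared signal to Hist1h2ap, leaving Hist1h2ao at 5.15 TPM and 3.38 TPM. The sum of both was 3345 ± 39.7 TPM. The quantifier's interval for Hist1h2ap was 3248 to 3325 TPM in replicate 1 and 3200 to 3276 TPM in replicate 2, so the deposited TPM lay above its own interval in both libraries. A TPM outside its interval in both libraries was found for 6 of the 66 detected members (9.09%), beside 3.32% of all detected genes. Among them was H1f0, all of whose coding windows were unique. It was at 401 TPM in replicate 1, above its interval of 386 to 397 TPM. Such a gap was thus not particular to genes with shared sequence.

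Both genes also carried a run of 12 A immediately before the stem-loop, visible in lower case in the Hist1h2ap sequence above. A run of at least 10 A occurred in the M21 transcripts of 6 of 88 members, beside 24.9% of detected mouse genes. The run was sought over whole transcripts. The shares were not adjusted for transcript length, and the 88 members include undetected genes. The other members with such a run were Hist1h2ac with 15 A, H3f3b with 12, Hist1h2be with 11 and H2afy with 10. Among the 4 replication-dependent genes with such a run, Hist1h2ap was the highest gene of the family, while Hist1h2ao, Hist1h2ac and Hist1h2be had means of 4.27, 3.77 and 3.18 TPM. The value of Hist1h2ao rests on how reads shared with Hist1h2ap were divided. In Hist1h2ac and Hist1h2be the run did not lie immediately before the stem-loop. The M21 model of Hist1h2ac was 2482 nt long, against 476 nt for the deposited values. The part of the run in the level was not tested.

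H2B, the dimer partner of H2A, did not show a matching high gene. Hist1h2bc was at 108 TPM in replicate 1 and 100.1 TPM in replicate 2. Hist3h2ba, from the small cluster on chromosome 11, was at 66.9 TPM and 66.4 TPM. Together these 2 genes held more than the other 13 protein-coding H2B genes, whose means ran from 0.10 to 18.2 TPM. The 3′ UTR model of Hist1h2bc, of 742 nt, held no stem-loop by the search used, and neither did the 2192 nt of Hist2h2be, a gene at 10.3 TPM and 9.87 TPM.

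H3, which carries most of the well-known regulatory tail modifications, was led by Hist1h3i at 117 TPM in replicate 1 and 103 TPM in replicate 2. Hist2h3b followed at 61.4 TPM and 47.9 TPM. The other 10 H3 genes had means between 0.77 and 18.2 TPM. Translating the M21 coding sequences gave the class 3 distinct proteins from 12 genes. Of these, 1 was the 181-residue product of the M21 model of Hist2h3c1 alone, an undetected gene with a mean of 0.77 TPM. Hist1h3a, Hist1h3g, Hist1h3h and Hist1h3i encode one 136-residue protein, counted with its first methionine, the form known as H3.1, and summed to 131 ± 10.4 TPM. Hist1h3b to Hist1h3f, Hist2h3b and Hist2h3c2 encode the form known as H3.2, which differs from it at 1 residue, and summed to 109 ± 11.8 TPM. In replicates 1 and 2 the H3.1 genes stood at 139 and 124 TPM and the H3.2 genes at 117 and 100.2 TPM. By these values H3.1 was the higher in each library. Only 31.4% of the coding windows of Hist1h3i and 6.73% of those of Hist2h3b occurred in no other gene. The order may thus depend on how shared reads were divided.

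H4, the H3 partner and the most conserved histone, was the extreme case of shared coding: all 13 genes encode a single 103-residue protein. Its sum was 491 TPM in replicate 1 and 433 TPM in replicate 2. Hist1h4d alone, at 409 TPM and 351 TPM, made up 82.2% of it. Unlike Hist1h2ap, Hist1h4d is distinct in sequence: all of its 100-nt coding windows occurred in no other gene. Hist1h4i was next at 25.3 TPM and 24.4 TPM. Hist1h4m was listed at 0 in both libraries, while Hist1h4n, whose coding windows likewise all occur in other genes, was at 14.0 and 14.6 TPM.

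The linker histones of the replication-dependent kind were low as a class, with a sum of 91.5 ± 8.58 TPM over 6 genes. Hist1h1e was the highest, at 46.5 TPM in replicate 1 and 41.7 TPM in replicate 2. Hist1h1b was at 23.7 and 19.4 TPM, and Hist1h1c at 21.3 and 18.7 TPM. Those 3 genes held most of the class. Hist1h1d was at 3.69 and 2.86 TPM, and Hist1h1a at 2.11 and 2.58 TPM. The testis linker gene Hist1h1t stayed below detection at 0.26 and 0.12 TPM. H1f0, a linker variant known for accumulating in cells that leave division, was at 401 TPM and 373 TPM, 4.24-fold the sum of all 6 replication-dependent H1 genes. H1fx was at 22.9 TPM and 20.9 TPM.

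Replacement variants of H3 and H2A were among the most abundant histone mRNAs. H3f3a, which encodes H3.3, was at 2218 TPM in replicate 1 and 2140.0 TPM in replicate 2. H3f3b, which encodes the identical protein from another gene, was at 1469.8 TPM and 1341 TPM. H3f3a exceeded H3f3b 1.55-fold on average and in each library. The processed pseudogene H3f3c was listed at 358 TPM and 323 TPM. Only 43.3% of its windows occurred in no other gene, and 32.1% of those of H3f3a, so part of the H3.3 signal cannot be assigned to one of these genes. The 2 coding genes summed to 3584 ± 147 TPM, which was 14.9-fold the replication-dependent H3 sum. With the pseudogenes and the antisense gene the sum was 3934 ± 170 TPM, and the ratio was 16.4-fold.

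H2afz and H2afv encode the H2A.Z proteins found beside active start sites, which differ at 3 residues. H2afz was at 1972 TPM in replicate 1 and 1762 TPM in replicate 2. H2afv was at 490 TPM and 444 TPM, so that H2afz was 4.00-fold higher. Both genes were higher in replicate 1. Every coding window of H2afz also occurred in 1 or both of 2 other annotated genes. H2afx was at 322 TPM and 347 TPM, and H2afj, a variant close to canonical H2A, at 50.2 TPM and 48.5 TPM. The macroH2A genes H2afy and H2afy2, whose proteins carry a large non-histone domain, were at 323 and 329 TPM and at 128 and 126 TPM. For macroH2A the libraries differed by less than for any other replacement class with a sum above 100 TPM, with an SD of 2.64 TPM on a sum of 453 TPM.

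The variants and genes known from germ cells were at or near 0. H2afb1, H2afb2, H2afb3, H1fnt and Hist1h2aa had 0 counts in both libraries, which allows up to 3 counts per library. H1foo, the oocyte linker, was listed at 0 and 0.04 TPM. Hist1h2ba, the testis H2B, was at 0.20 and 0 TPM. The 8 germ cell members together summed to 0.46 and 0.16 TPM. The germ cell markers Ddx4, Dazl and Pou5f1 were below 1 TPM in both libraries as well, with a sum of 0.40 and 0.51 TPM.

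Summed by class, the family was uneven although its products assemble in equal amounts. Class sums take all members, pseudogenes included. The H2A sum was 3787 ± 83.0 TPM, against 247 ± 2.86 TPM for H2B, 241 ± 22.6 TPM for H3 and 462 ± 40.9 TPM for H4. On the log2 scale H2A over H2B was 3.94 ± 0.01 and H4 over H3 was 0.94 ± 0.01. The sums of H3 and H2B could not be ordered: their log2 ratio was 0.05 in replicate 1 and -0.12 in replicate 2. Both other ratios rested on 1 gene. Without Hist1h2ap and Hist1h2ao, H2A summed to 442 ± 43.2 TPM and its log2 ratio over H2B was 0.84 ± 0.12. Without Hist1h4d, the log2 ratio of H4 over H3 was -1.55, so the direction turned.

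**Figure D2:**
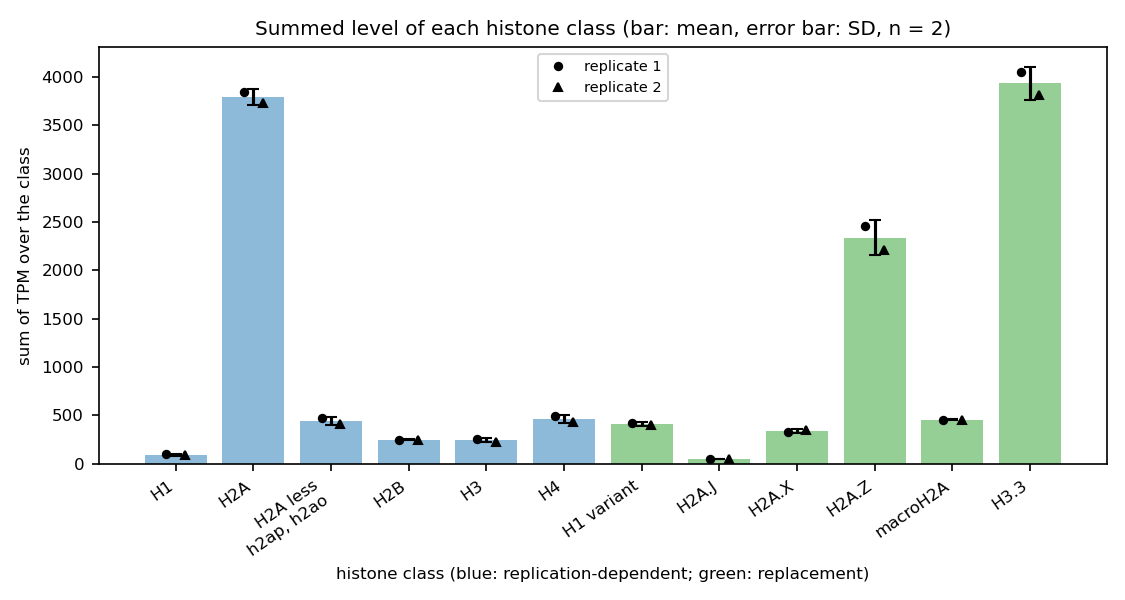
Sum of TPM over all members of each class, on a linear axis from 0. Bars are means, error bars SD over the 2 libraries, circles replicate 1 and triangles replicate 2. H2A stands at 3787 TPM and falls to 442 TPM when Hist1h2ap and Hist1h2ao are left out, close to H4 at 462 TPM, while H3.3 and H2A.Z are the highest replacement classes.

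With pseudogenes and the antisense gene included, the 21 replacement and linker members summed to 7514 ± 352 TPM and the 67 replication-dependent members to 4828 ± 158 TPM. The protein-coding genes alone gave 7165 ± 329 TPM over 15 genes and 4819 ± 158 TPM over 64. For the larger sets the log2 ratio was 0.64 ± 0.02, and it was 2.34 ± 0.05 without Hist1h2ap and Hist1h2ao. The cluster on chromosome 13 gave 4574 TPM, the one on chromosome 3 gave 154 TPM, the one on chromosome 11 gave 99.2 TPM, and Hist4h4 on chromosome 6 gave 0.56 TPM. These sums compare RNA levels. For mRNAs without a poly(A) tail they also depend on how cDNA was primed, which is not given in the sources used here, and its part was not tested.

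Coding sequence shared between genes was the rule in the replication-dependent family. Counted in windows of 100 nt of M21 coding sequence, the median replication-dependent gene had 38.3% of its windows in no other gene, and 13 of 64 genes had none. For H2A the median was 14.1%, for H3 28.4%, for H4 39.9%, for H2B 43.1% and for H1 95.1%. Among the 15 replacement and linker genes the median was 100%. At the level of proteins, 18 H2A genes gave 9 products, and 1 of these was encoded by 9 genes: Hist1h2ab, Hist1h2ac, Hist1h2ad, Hist1h2ae, Hist1h2ag, Hist1h2ai, Hist1h2an, Hist1h2ao and Hist1h2ap. That protein's genes summed to 3638 ± 78.6 TPM. The 15 H2B genes gave 9 products, of which the one shared by Hist1h2bc, Hist1h2be and Hist1h2bg was highest, at 114 ± 4.99 TPM. These counts take 1 product per gene, from its longest M21 coding sequence, and depend on that choice. For Hist1h2bp this was the 138-residue product of transcript 202. Transcript 201, with 126 residues, held 82.8% and 88.5% of that gene's TPM.

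The quantifier's own interval was wider for histone genes than for other genes. Its width, as a share of the posterior mean TPM, had a median of 40.5% over the 66 detected members and of 16.4% over all 15108 detected genes. It was 49.8% over the 53 detected replication-dependent coding genes and 4.22% over the 10 detected replacement and linker genes. The width also varies with the count. Among genes with a mean of 30 to 100 counts the median width was 84.5% for 21 replication-dependent genes and 56.7% for 1210 genes in all. The widest among the detected members was that of the H2A pseudogene Hist1h2aj at 197.5%. Among the replication-dependent coding genes the widest was that of Hist1h2ao at 188%, and the narrowest that of its twin Hist1h2ap at 2.34%. Hist1h2ap, with no unique coding window, was thus among the members with the narrowest intervals.

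**Figure D3:**
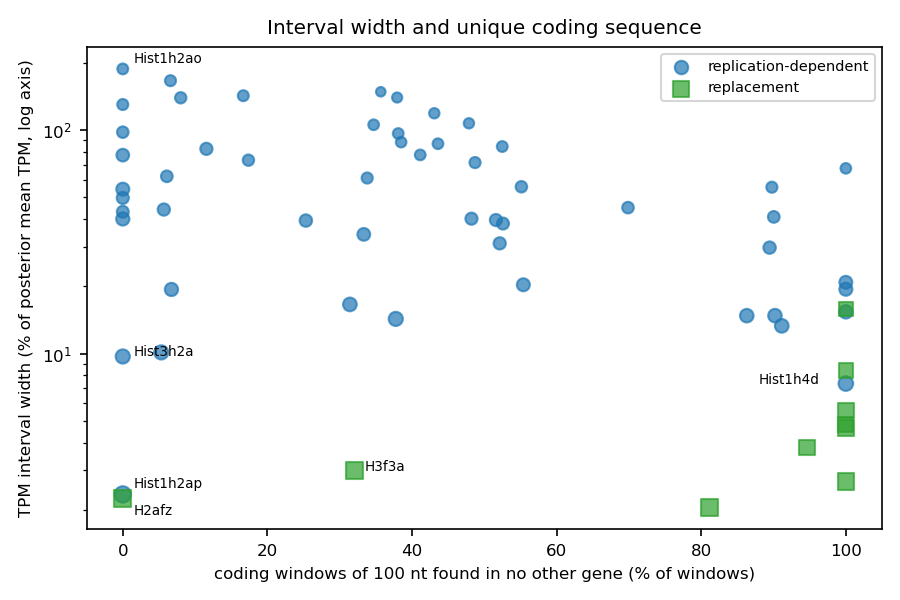
Width of the TPM interval, in percent of the posterior mean and on a log axis, against the share of 100-nt coding windows found in no other gene, for detected protein-coding members. Point size grows with the log of the mean count. Hist1h2ap and H2afz sit at 0% unique windows with widths of 2.34% and 2.25%, and Hist1h2ao at 0% with 188%.

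H2A and H2B genes often lie head to head and share the stretch between their start sites. With M21 starts less than 1000 bp apart, 12 such pairs of coding genes were found, 176 to 306 bp apart. Within these pairs the levels were not matched. By TPM, H2A was the higher gene in both libraries in 8 pairs and H2B in 3. In the germ cell pair of Hist1h2aa and Hist1h2ba neither gene was detected. The quantifier's intervals overlapped in both libraries for Hist1h2ad and Hist1h2bf, Hist1h2an and Hist1h2bp, Hist1h2ao and Hist1h2bq, and Hist2h2ac and Hist2h2be. The order within those pairs is not resolved. Hist1h2ap, Hist1h2br, Hist1h2ao, Hist1h2bq, Hist1h2ag and Hist1h2ad had no unique coding window, so their levels rest on how shared reads were divided. Hist1h2ap and Hist1h2br, 236 bp apart, were at 3368 and 0.35 TPM in replicate 1 and at 3313 and 0.52 TPM in replicate 2. Hist1h2ac and Hist1h2bc, 251 bp apart, showed the opposite order at 2.87 and 108 TPM in replicate 1 and 4.66 and 100.1 TPM in replicate 2. Hist2h2ac and Hist2h2be were nearly equal, at 9.50 and 10.3 TPM in replicate 1 and 8.87 and 9.87 TPM in replicate 2.

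**Figure D4:**
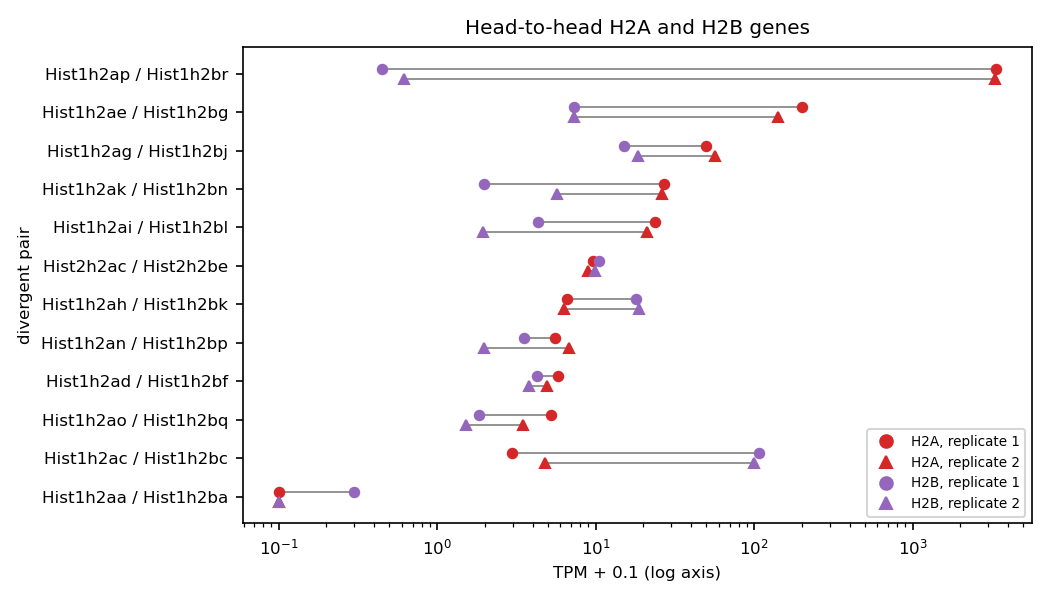
TPM plus 0.1, on a log axis, of the H2A gene (red) and the H2B gene (purple) of each of 12 divergent pairs. Circles are replicate 1 and triangles replicate 2. The pair of Hist1h2ap and Hist1h2br is the farthest apart, and the pair of Hist1h2ac and Hist1h2bc has the H2B gene far above the H2A gene.

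Promoter windows are shown for the highest H2A gene, the next H2A gene and the highest H4 gene, to set their motifs side by side. They are RefSeq windows of GRCm38.p6, from 250 bases before to 50 after the RefSeq start, written 5′ to 3′ on the gene's strand. Capitals mark the NF-Y box CCAAT, the TATA box written as TATAAA, and the octamer ATTTGCAT, each on either strand.
Hist1h2ap, chr13:21833426-21833725, minus strand: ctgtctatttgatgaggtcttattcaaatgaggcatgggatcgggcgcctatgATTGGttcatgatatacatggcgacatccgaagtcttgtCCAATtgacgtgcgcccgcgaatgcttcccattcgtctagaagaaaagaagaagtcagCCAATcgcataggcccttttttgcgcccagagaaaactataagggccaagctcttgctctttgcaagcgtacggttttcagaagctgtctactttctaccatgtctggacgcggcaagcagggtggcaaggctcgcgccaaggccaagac
Hist1h2ae, chr13:23571171-23571470, minus strand: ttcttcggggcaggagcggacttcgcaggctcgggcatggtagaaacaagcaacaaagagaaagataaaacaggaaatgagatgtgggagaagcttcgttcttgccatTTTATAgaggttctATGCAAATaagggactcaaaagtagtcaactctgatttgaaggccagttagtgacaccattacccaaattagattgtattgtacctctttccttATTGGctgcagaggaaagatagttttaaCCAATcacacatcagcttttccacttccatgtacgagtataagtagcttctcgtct
Hist1h4d, chr13:23581318-23581617, plus strand: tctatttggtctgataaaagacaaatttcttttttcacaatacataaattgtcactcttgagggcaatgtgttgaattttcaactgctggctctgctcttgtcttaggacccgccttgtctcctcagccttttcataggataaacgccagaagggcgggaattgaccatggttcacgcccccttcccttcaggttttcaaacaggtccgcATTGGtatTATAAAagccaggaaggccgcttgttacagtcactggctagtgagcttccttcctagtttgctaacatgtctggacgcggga

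Windows of 73 protein-coding members were found. CCAAT, the NF-Y box, occurred in all 18 H2A, 13 H2B, 10 H3 and 6 H1 windows but in 3 of 12 H4 windows. It also occurred in 10 of 14 replacement and linker windows, beside 37.4% of the 32851 windows in the table. The octamer ATTTGCAT, the site of POU-domain factors such as OCT1, occurred in 7 of 18 H2A and 4 of 13 H2B windows and in 0 of the H1, H3 and H4 windows. It also occurred in 1 of 14 replacement and linker windows, that of H3f3b, beside 1.74% of the table. TATAAA occurred in 35 of 59 replication-dependent windows (59.3%) and in 1 of 14 replacement and linker windows, beside 13.6% of the table. Windows of divergent pairs overlap, so an H2A and an H2B window can hold the same site. The octamer and TATAAA of the Hist1h2ae window face its H2B neighbour Hist1h2bg, a gene at 7.18 and 7.15 TPM. The Hist1h2ap window held CCAAT 3 times and neither of the other motifs. Its RefSeq start is the first base of the start codon, past an M21 5′ UTR of 32 nt. The RefSeq start of Hist1h2ae is its M21 start, so these windows do not cover the same stretch relative to the M21 start. The windows of Hist1h2ap and Hist1h2ao start at RefSeq sites that differ by 100 bases relative to the gene, and over the 200 bases they share they differed at 0 positions. A match describes letters only, and the lack of one says that these letters are not in this window.

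Genes with several transcripts in the tables numbered 11 and included the abundant replacement variants. For H2afz, transcript 201, which encodes the full 128 residues, was at 1621 TPM in replicate 1 and 1530.5 TPM in replicate 2, and transcript 207, with a shorter product of 105 residues, at 338 and 218 TPM. For H2afv the 519-nt transcript 201 held 66.5% and 64.4% of the gene's TPM, and transcript 202, which encodes the full 128 residues, 33.5% and 35.6%. H2afy is spliced into alternative macroH2A forms. Transcript 201 of H2afy, with 372 residues, was at 207 and 204 TPM and transcript 202, with 369 residues, at 14.8 and 15.1 TPM. The longer form was thus the higher in both libraries. H3f3b was 85.2% transcript 201 in both libraries. H3f3a was spread more widely, with 70.8% and 68.3% in transcript 201, whose M21 model gave 135 residues. Transcript 205, with 136 residues, held 8.1% and 7.51%. The identity of the H3f3a and H3f3b proteins given above is that of their 136-residue products.

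Of the 39 members with a mean of at least 100 counts, 0 differed 2-fold between the libraries, a share near the 1.23% of all 13507 such genes. The median absolute log2 ratio between the libraries was 0.14 for these members and 0.10 for all such genes. The quantifier's intervals did not overlap for 11 of the 39 (28.2%), beside 18.9% of genes. The share was 5 of 28 (17.9%) for replication-dependent coding genes and 6 of 10 (60%) for replacement and linker coding genes. Of the 11 members, 10 were higher in replicate 1, a direction in which 7.94% of genes stood apart. The other 1 was higher in replicate 2, where 11% did. The 10 were Hist1h2ae, Hist1h4d, Hist2h3b, Hist2h4, Hist3h2a, H1f0, H2afz, H2afv, H3f3a and H3f3b, and the 1 was H2afx. Hist2h4 was at 11.7 and 9.39 TPM. Hist1h2ae had the largest shift of them, with 1.41-fold more in replicate 1. Over the 39 members the median log2 ratio of replicate 2 over replicate 1 was -0.10, beside 0.02 over all such genes. The interval covers counting and read assignment within a library, not differences between pools, so such a gap is not a test.

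Other lists moved between the pools as well. The proliferation markers Mki67, Pcna, Top2a and Cdk1 summed to 879 TPM in replicate 1 and 840 TPM in replicate 2, all 4 lower in replicate 2. The 8 kidney markers, such as Wt1 and Cited1, all exceeded 1 TPM and summed to 414 and 425 TPM. Adrenal markers summed to 27.0 and 107 TPM, liver markers to 146 and 271 TPM, skeletal muscle markers to 265 and 140 TPM and erythroid markers to 7116 and 8174 TPM. Their part in the histone levels was not tested.

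The genes that switch on, process and escort histones were all expressed. All 34 genes of the list reached 1 TPM in both libraries, beside 62.3% of protein-coding genes, with a median of 49.9 TPM against 16.7 TPM over all detected genes. Slbp, the stem-loop binding protein, was at 211 TPM in replicate 1 and 199 TPM in replicate 2. Npat, the coactivator of histone genes in S phase, was at 16.5 and 16.8 TPM, and Casp8ap2, a protein of the histone locus body, at 51.6 and 44.8 TPM. The highest were Rbbp7 at 440.1 and 431 TPM and Rbbp4 at 399 and 347 TPM, subunits of many histone-binding complexes. Cenpa, the H3 variant of centromeres, followed at 217 and 215 TPM. Its chaperone Hjurp was at 132 and 141 TPM. At the low end were Lsm11, of the U7 particle that cuts histone pre-mRNA, at 4.03 and 4.47 TPM, and Zfp473, at 2.19 and 1.70 TPM. Between the pools, 0 of the 34 differed 2-fold, beside 1.23% of genes with at least 100 counts, and the intervals did not overlap for 12 of the 34 (35.3%), beside 18.9%.

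**Figure D5:**
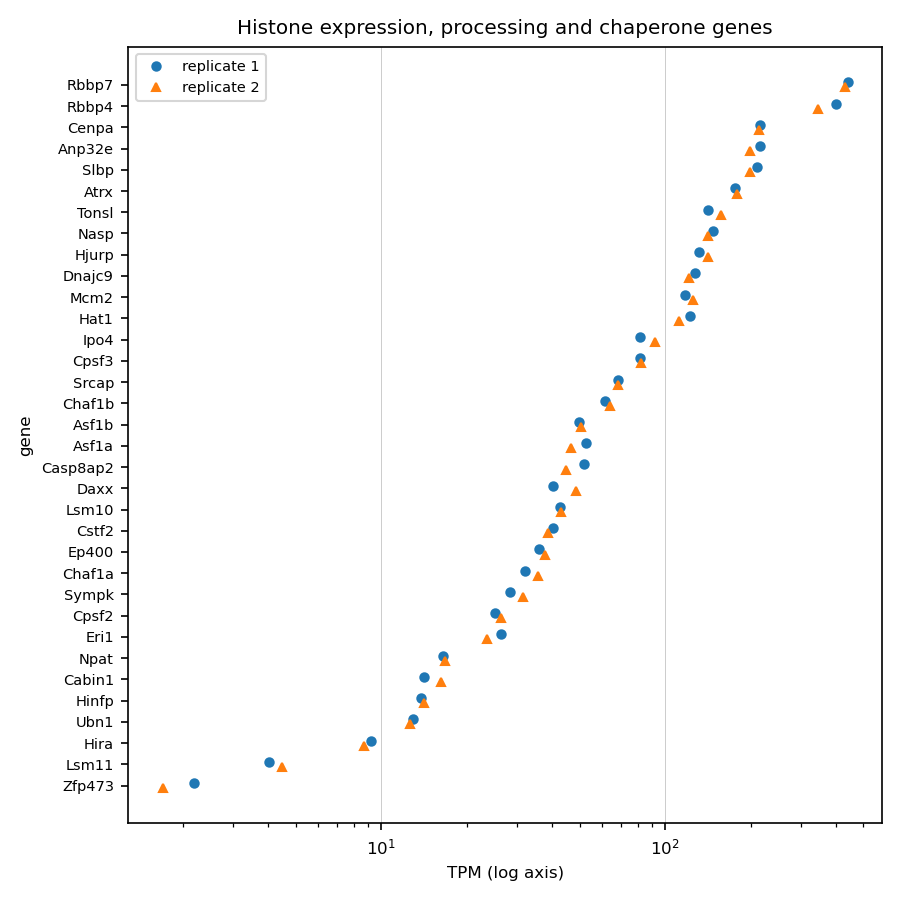
TPM, on a log axis, of 34 genes for histone transcription, 3′ end processing and chaperoning, ordered by mean. Circles are replicate 1 and triangles replicate 2. The highest are Rbbp7 and Rbbp4 and the lowest Lsm11 and Zfp473, and no gene differs 2-fold between the 2 libraries.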

How the data were processed

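Total RNA of 2 pooled kidney libraries was quantified by the authors per gene and per transcript, on build mm10 with GENCODE M4, per the text files placed beside the tables. Which aligner and quantifier ran, at what level intervals were set, and whether strand was used is not given in the sources used here. Per the file headers, the authors gave expected counts, that is estimated counts, in which a read matching several features is divided among them. The deposited TPM and FPKM values are adjusted for length, and TPM is scaled over all features, spike-ins included (5.78% and 7.34% of TPM). The bounds of the TPM interval are a score of the authors' quantifier, and the percent of a gene's TPM in each transcript is the authors' column, per the file headers.

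Symbols, models and coding sequences came from GENCODE M21, matched by identifier for 42462 of 43346 mouse genes, with Python 3.11.15. Proteins were translated from M21 because no protein table was used. Members and lists were chosen with earlier results of these data known. Named with values are members at 30 TPM or more, all coding replacement variants and H1 genes, members that differed between pools, germ cell members and, of the supply list, the 3 highest, Slbp, Npat, Casp8ap2 and Cenpa; other named genes, among them Hist1h2ao and the divergent partners, were chosen after their values were seen. Genes overlapping on either strand are uncertain because the use of strand is not given. No p was computed: 1 group of 2 libraries allows no comparison of groups, and whether pools share litters is not given. The call rules were tested on simulated data. Alternatives used other thresholds, FPKM, posterior mean TPM, expected counts, rescaled TPM, and CPM with TMM factors (edgeR 4.0.16 on counts rounded to whole numbers). The limit allowed by a count of 0 covers counting error only.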

Additional observations from a re-analysis of the deposited data

How the results depend on the processing

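No paired analysis was possible because there is 1 group. The count of detected members was 66, and lay between 49 (5 TPM) and 73 (0.5 TPM) over the thresholds, FPKM and a count minimum, and between 66 and 70 in single libraries. The replication-dependent sum of 4828 TPM was 5166 TPM when rescaled over mouse genes, 3247 in FPKM, which is another unit, and 1483 TPM without Hist1h2ap and Hist1h2ao, an alternative chosen after seeing the data. Single libraries gave 4716 and 4940 TPM.

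Log2 H2A over H2B was 3.24 from expected counts, 3.85 from counts per full length and 0.84 without Hist1h2ap and Hist1h2ao, and 3.93 to 3.95 in single libraries. Log2 H4 over H3 was 0.77 from expected counts, 0.89 from counts per full length and -1.55 without Hist1h4d. Without Hist1h4d the log2 ratio of H4 over H2B also turned, to -1.58. Log2 replacement over replication-dependent was 2.13 from expected counts, which do not adjust for length, 0.83 from counts per full length, 0.57 over protein-coding members and 2.34 without Hist1h2ap and Hist1h2ao. The log2 ratio of H3 over H2B was 0.046 without replicate 2 and -0.12 without replicate 1, against -0.04 over both. Counts per full length and the omission of Hist1h4d were also chosen after seeing the data.

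The members' median interval width of 40.5% was 15.8% at 10 TPM or more (11.2% for all genes), and 40.6% to 42.4% in single libraries. At a minimum of 20 counts, 3 of 67 members differed 2-fold between pools, namely Hist1h2bl, Hist1h2bn and Hist2h3c1, beside 3.45% of genes, and 0 of 39 did at a ratio of 1.5 (3.15% of genes), in FPKM (1.22%), posterior mean TPM (1.09%) or CPM with TMM factors (1.15%), shares too low for 0 to set the members apart. The supply genes detected were 32 of 34 at 5 TPM. Of the other values of classes, shared proteins and single members, 121 stayed within 1 SD, 38 moved further and 2 turned. The 121 include values of single libraries. With 2 libraries, each lies within 1 SD of their mean by construction, so those values do not show stability.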
